A study of Homo sapiens with 15 samples.

Results

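Matrix metalloproteinases and their inhibitors control how cells cut and rebuild the matrix around them, and 10 genes of this system were followed in A549 cells: the secreted proteinases MMP1, MMP2 and MMP7, the membrane-anchored proteinases MMP14, MMP15 and MMP24, the tissue inhibitors TIMP1, TIMP2 and TIMP3, and the sheddase ADAM17. The genes were taken by symbol from count tables that hold 43388 gene symbols, and all 10 had a row. Enough reads for a test were present for 9 of the 10, and MMP1 had too few. TIMP3, MMP14 and MMP2 were also sparse, with at most 34, 28 and 56 counts in any library.

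Matrix metalloproteinases are zinc-dependent enzymes that are made as inactive precursors and cleave collagens, other matrix proteins and cell surface proteins once activated. The TIMPs bind the active site and block cleavage, so the balance of enzyme and inhibitor sets the rate of matrix turnover. In the lung these genes are known for their part in alveolar remodeling, in injury and in repair of the epithelium. ADAM17 belongs to a related family and releases TNF and ligands of the epidermal growth factor receptor from the cell surface, and TIMP3 is its main natural inhibitor.

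A549 is a cell line derived from a human lung adenocarcinoma, wild type per the labels, and stands as 1 tumor line for the alveolar epithelium. Cells were kept for 72 hours under hyperoxia (95% oxygen) or under normoxia (21% oxygen) and their RNA was sequenced. For 24 hours before the exposure, cells received all-trans-retinoic acid (ATRA, a vitamin A derivative that activates nuclear retinoic acid receptors) at 1e-05 mM, with 3 libraries per oxygen level, or its ethanol vehicle, with 2 libraries per oxygen level. The study's methods describe the oxygen exposure itself as done with or without ATRA present, so the drug may not have been limited to those 24 hours. Another 4 libraries, 2 per oxygen level, have a treatment label that gives the oxygen level only and are called no vehicle here, and 1 library with labels that disagree entered no comparison. The labels do not say whether libraries of a group came from separate cultures, so p-values measure the spread between these libraries, which may be technical.

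The promoters of MMP7, TIMP1 and MMP24 are shown because these genes passed the test in at least 2 comparisons. TIMP2 also did, but had no entry in the promoter table used. Each sequence shown is the stretch of 250 bases before the transcription start, printed 5′ to 3′ along the gene's strand. It is from the RefSeq promoter table (GRCh38.p14), which held 7 of the 10 genes. Capitals mark matches, on either strand, to TGAGTCA or TGACTCA (the binding motif of the AP-1 transcription factors), TATAAA (the TATA box), GGGCGG (the GC box) and AGGTCA (the half-site of retinoid receptors).
MMP7: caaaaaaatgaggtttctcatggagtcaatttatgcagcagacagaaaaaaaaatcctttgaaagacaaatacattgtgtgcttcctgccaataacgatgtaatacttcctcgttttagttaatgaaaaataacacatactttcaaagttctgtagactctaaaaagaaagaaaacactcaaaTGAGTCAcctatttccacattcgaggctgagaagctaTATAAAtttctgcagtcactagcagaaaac
TIMP1: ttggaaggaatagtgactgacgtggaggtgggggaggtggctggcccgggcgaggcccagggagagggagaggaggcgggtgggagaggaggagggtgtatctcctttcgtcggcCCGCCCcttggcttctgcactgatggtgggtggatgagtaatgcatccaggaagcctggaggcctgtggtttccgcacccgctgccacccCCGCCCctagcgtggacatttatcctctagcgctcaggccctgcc
MMP24: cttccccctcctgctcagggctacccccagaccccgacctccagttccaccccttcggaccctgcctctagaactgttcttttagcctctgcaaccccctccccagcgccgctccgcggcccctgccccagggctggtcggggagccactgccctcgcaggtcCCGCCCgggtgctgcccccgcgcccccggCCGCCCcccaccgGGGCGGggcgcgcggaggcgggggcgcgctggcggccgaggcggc
The MMP7 sequence lies at chr11:102530748-102530997 on the minus strand, the TIMP1 sequence at chrX:47582186-47582435 on the plus strand and the MMP24 sequence at chr20:35226440-35226689 on the plus strand. MMP7 has an AP-1 motif that begins 67 bases before the start and a TATA box that begins 30 bases before it, in a window of 33.6% G and C. TIMP1 has 2 GC boxes in a window of 64.8% G and C, and MMP24 has 3 in a window of 77.6%. Of 35116 promoter windows of this length, 4.2% hold the AP-1 letters, 10.7% TATAAA, 42.6% GGGCGG and 12.1% AGGTCA. Among the genes followed here, AGGTCA was found for MMP15 alone, 226 bases before its start. No matches overlap in the sequences shown. A match is a string of letters and was not tested as a binding site.

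Libraries held 2642377 to 5605072 counts on genes, so that 3 counts, the smallest level taken as detectable, equal 0.528 to 1.14 CPM. This unit, the usual one for sequencing counts, scales each count to the total of its library, here after TMM normalization. Intervals for counts cover counting error only. Groups of 2 or 3 libraries can easily fail to overlap without a difference, so a lack of overlap between them is only described. The share of all genes without overlap was not counted for groups of these sizes. The first no-vehicle hyperoxia library stood apart. Its distance in log2 CPM to the nearest library was 219, against 60.9 to 109 for the others, and 12657 genes had a count in it, against 16465 to 20108. Among the tests of vehicle and ATRA libraries it entered only the alternative fits of 14 libraries and pooled controls. The calls of the no-vehicle comparison, which includes it, are given with and without it. Other results that include it, such as medians over 14 libraries and no-vehicle log2 fold changes without a call, may be given only with it. Where a group is left with 1 library, that library is assumed to vary like the other groups. CDKN1A and CYP26B1 served to check the labels of the vehicle and ATRA libraries. CDKN1A, the p53 target that stops the cell cycle, was higher in hyperoxia by a log2 fold change of 3.34 with vehicle and 3.83 with ATRA, and CYP26B1, the retinoic acid hydroxylase, was higher with ATRA by 3.70 in normoxia and 4.13 in hyperoxia (edgeR quasi-likelihood test, adjusted p at most 7.38e-08). The library that stood apart, labelled hyperoxia without ATRA, had 98.3 CPM of CYP26B1, above the 35.2 to 61.9 CPM of the other libraries without ATRA and below the 372 to 856 CPM of those with it. DHRS3, another gene raised by ATRA, was at 84.9 CPM in it, against 50.2 to 72.1 CPM and 182 to 263 CPM. Whether its label is correct was not tested. The keratins KRT8 and KRT18 were found in every library, while 7 alveolar type II genes summed to at most 4.31 CPM, with SFTPA1 and SFTPA2 at 0 in all 14. The list of 5 epithelial markers moved with oxygen, from 5726 to 9535 CPM in normoxia and from 1681 to 4191 CPM in hyperoxia. KRT8 and KRT18 made up most of this sum. KRT19 lay at 15.3 to 95.3 CPM and CDH1 at 9.25 to 79.4 CPM. EPCAM was low, at 1.73 to 4.78 CPM in normoxia and 0 to 1.06 CPM in hyperoxia. A list of 4 leukocyte markers also moved, from 20.3 to 47.9 CPM in normoxia and from 60.5 to 103 CPM in hyperoxia. CD68 made up most of it, CD14 reached 10.4 to 15.3 CPM in normoxia with ATRA, CD3E was at 0 and PTPRC had no more than 1 count. The summed fibroblast markers reached 12.5 CPM in normoxia and 2.29 CPM in hyperoxia with DCN at 0, and the endothelial markers 6.24 and 0 CPM with VWF at 0. COL1A1 made up most of the fibroblast sum in normoxia, at up to 12.1 CPM, and reached 1.62 CPM in hyperoxia. CDH5 was at 1.87 to 5.20 CPM in normoxia with ATRA, at most 0.194 CPM in normoxia without it and 0 in hyperoxia. The part of these shifts in the oxygen results was not tested, and in bulk RNA fewer cells that express a gene and less of its RNA per cell cannot be told apart.

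TIMP1 and TIMP2 were the most abundant of the 10 transcripts. On a scale that allows genes to be compared, CPM per kilobase of transcript, TIMP1 had a median of 92.6 over the 14 libraries, TIMP2 67.7, MMP7 34.4, ADAM17 23.9 and MMP24 22.6. MMP15 followed with 5.34, and MMP2 with 1.39, MMP14 with 0.948, TIMP3 with 0.133 and MMP1 with 0 closed the order. TIMP1 exceeded TIMP2 in 11 of 14 libraries, MMP7 exceeded ADAM17 in 8 and ADAM17 exceeded MMP24 in 7, so MMP7, ADAM17 and MMP24 had no fixed order among themselves. ADAM17 and MMP24 overlap genes on the opposite strand, described below, whose reads may be part of these levels. MMP24 exceeded MMP15, and MMP15 exceeded MMP2, in all 14. The low genes were not fully ordered either, since MMP2 exceeded MMP14 in 10 libraries and MMP14 exceeded TIMP3 in 12. The ratio of TIMP1 to TIMP2 on this scale ran from 0.840 to 2.01 in hyperoxia and from 0.924 to 1.57 in normoxia. The value of 2.01 was that of the library that stood apart, and the next highest was 1.88.

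**Figure D1:**
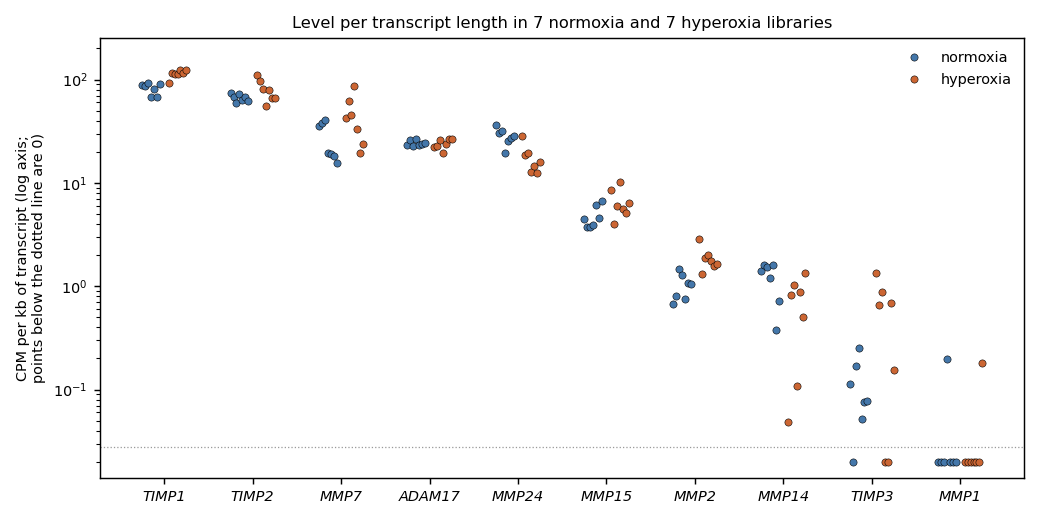
Level of each gene in CPM per kilobase of transcript on a log axis, with 1 point per library for 7 normoxia and 7 hyperoxia libraries and zeros drawn below the dotted line. The inhibitors TIMP1 and TIMP2 lie highest, MMP7, ADAM17 and MMP24 overlap, and TIMP3 and MMP1 lie near or at 0.

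Oxygen changed a few of these genes in each treatment, and MMP24 was lower in hyperoxia in all 3. Among vehicle libraries, 2 of the 9 genes tested changed, with MMP24 lower and TIMP1 higher, where 17.5% of all 14957 genes were called, 8.81% lower and 8.68% higher. Under ATRA, 3 of 9 changed, with MMP24 lower and TIMP2 and TIMP3 higher, where 22.7% of all genes were called, 11.3% lower and 11.4% higher. Among no-vehicle libraries, 3 of 9 changed, with MMP24 lower and MMP7 and TIMP1 higher, where 15.2% of 15339 genes were called, 7.58% lower and 7.57% higher. That comparison includes the library that stood apart. Without that library the MMP7 log2 fold change was 0.78, and the values for MMP24 and TIMP1 are given below. Fitted on the no-vehicle libraries alone, 0 of the 9 were called, where 0.419% of all genes were. The median log2 fold change of all genes in the no-vehicle comparison was -0.10, with the library that stood apart included. Relative to that median, the higher genes rose by more and MMP24 fell by less. For vehicle against no vehicle, the median of all genes was 0.090 in hyperoxia and -0.0042 in normoxia. Whether the library that stood apart sets this shift was not tested. At the background shares of 15.2% to 22.7%, about 1 to 2 of any 9 genes would be called. TIMP3 passed the filter on low counts through hyperoxia libraries alone. No count therefore says that the family responded as a group. The median log2 fold change of the 9 genes was 0.37 with vehicle and 0.38 with ATRA, against 0.01 for all genes in both.

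ATRA changed fewer genes than oxygen, and MMP7 was higher with it at both oxygen levels. In hyperoxia, MMP7 and TIMP2 were higher than with vehicle, 2 of 9 where 2.21% of all genes were called and 1.52% were higher. In normoxia MMP7 was higher, 1 of 9 where 1.25% of all genes were called and 0.816% were higher. When the ATRA effects in hyperoxia and normoxia were tested against each other, 0 of the 9 differed by the edgeR test, where 0.14% of all genes were called. By the same edgeR test 1 of the 9, TIMP2, had an unadjusted p under 0.05. DESeq2 also called 0, but it gave an adjusted p for only 2190 genes here, of which 4.7% were called. Genes without an adjusted p could not be called, so this 0 says little about sparse genes. The comparisons of ATRA and of oxygen use the same libraries and are not independent.

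**Figure D2:**
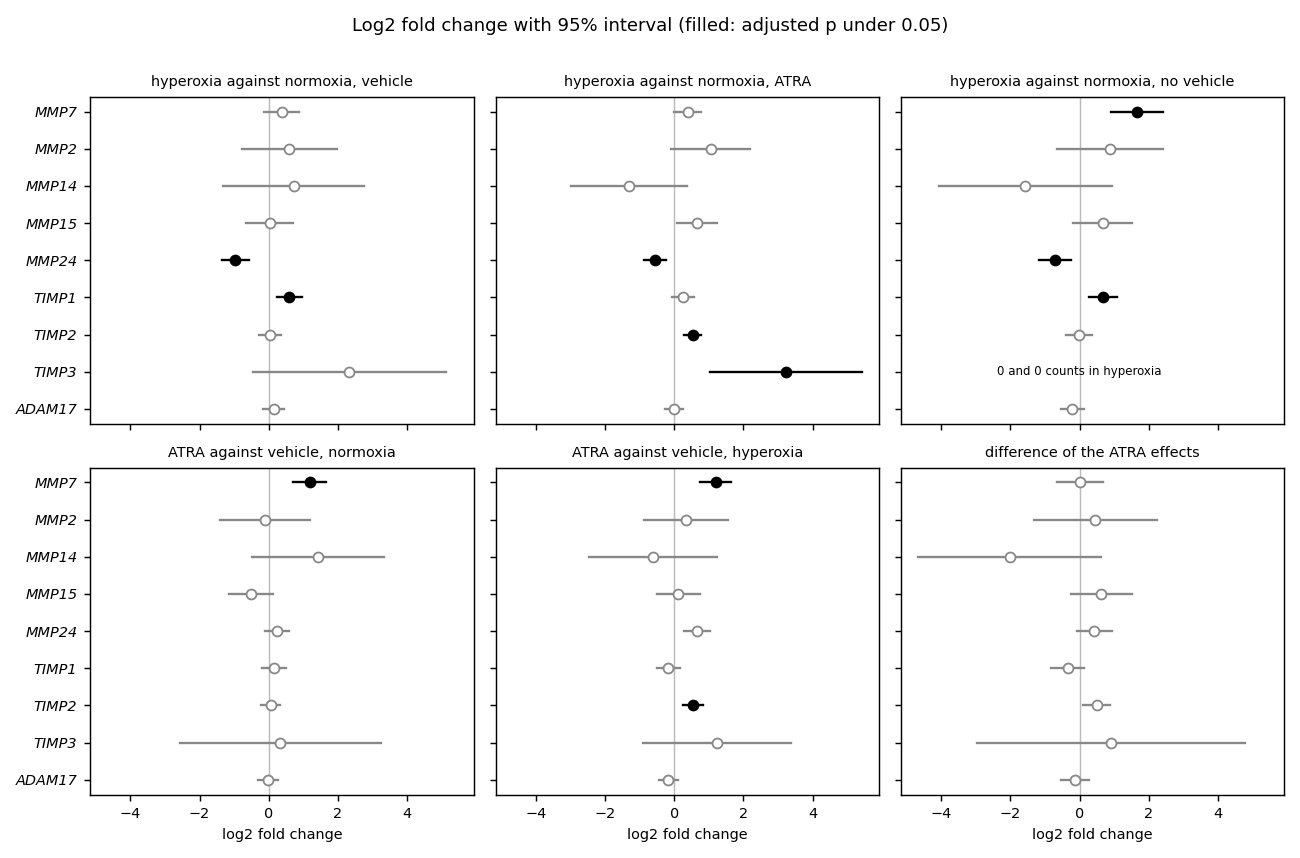
Log2 fold change (x axis) of 9 genes with its 95% interval in 6 comparisons, filled where the adjusted p was under 0.05. MMP24 lies below 0 in the 3 oxygen comparisons, MMP7 lies near 1.2 for ATRA at both oxygen levels, and the sparse genes MMP2, MMP14 and TIMP3 have wide intervals. TIMP3 is not drawn without vehicle, where both hyperoxia libraries had 0 counts.

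Among the secreted enzymes, MMP7 (matrilysin, an epithelial enzyme that cleaves proteoglycans and cell surface proteins) gave the plainest response to ATRA. The gene lies at chr11:102520508-102530747 on the minus strand. In normoxia its level was 20.5 and 17.5 CPM with vehicle and 40.1, 42.3 and 45.4 CPM with ATRA. In hyperoxia it was 21.7 and 26.6 CPM with vehicle and 48.0, 69.1 and 51.1 CPM with ATRA. Every ATRA library was thus above every vehicle library, with no overlap at either oxygen level. MMP7 rose 2.26-fold with ATRA in normoxia (log2 fold change 1.18, SE 0.23, adjusted p = 0.0076) and 2.29-fold in hyperoxia (1.20, SE 0.22, adjusted p = 0.00311). The ATRA effects at the 2 oxygen levels differed by 0.02, with a 95% interval from -0.64 to 0.68, which does not exclude a moderate difference. The call in normoxia was lost without either vehicle library, with adjusted p of 0.0770 without the first and 0.241 without the second, and the call in hyperoxia was lost without the first vehicle library, at 0.153. In a fit of all 14 libraries in 6 groups the log2 fold changes were 1.17 and 1.20 with adjusted p of 0.241 and 0.136.

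The no-vehicle libraries add a value of MMP7 that stands apart. In normoxia they had 21.6 and 21.3 CPM, close to the vehicle libraries. In hyperoxia they had 96.9 and 37.0 CPM, and the first is the library that differed from all others. MMP7 was called higher in hyperoxia with both libraries (log2 fold change 1.65, SE 0.35, edgeR adjusted p = 0.00464), and without the first the log2 fold change was 0.78 with adjusted p = 0.0952. The call was also lost without the first no-vehicle normoxia library, at 0.0529. Fitted on the 4 no-vehicle libraries alone, adjusted p was 0.240 for MMP7, 0.286 for MMP24 and 0.280 for TIMP1. The library with 96.9 CPM of MMP7 is also the one with raised CYP26B1, and it had 19.7 CPM of ADAMTS15, a proteinase of the ADAMTS family, against 5.85 CPM in the other library of its group. With vehicle the oxygen difference of MMP7 was 0.37 (adjusted p = 0.370) and with ATRA 0.38 (adjusted p = 0.154), both with the hyperoxia libraries above the normoxia libraries. The oxygen effect without vehicle exceeded that with vehicle by 1.29 (SE 0.50, adjusted p = 0.869), a comparison added after the data were seen in which 0 of the 9 genes and 0.00652% of all genes were called. Of the 9, MMP7 and TIMP3 had an unadjusted p under 0.05 there, and without the library that stood apart the MMP7 value was 0.42 (SE 0.39, adjusted p = 1.00). When vehicle and no-vehicle libraries were pooled as controls, the ATRA effect on MMP7 in hyperoxia was 0.28 (adjusted p = 0.784) and its oxygen effect without ATRA was 1.17 (adjusted p = 0.0191). Without the library that stood apart the former was 0.98 and passed the test, and the latter was 0.47 (adjusted p = 0.0657).

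MMP2 (gelatinase A, which cleaves denatured collagen and basement membrane collagen) lies at chr16:55478830-55506691 and was low, with 9 to 56 counts per library. Vehicle libraries had 3.81 and 3.71 CPM in normoxia and 5.55 and 5.81 CPM in hyperoxia. ATRA libraries had 2.34, 2.80 and 5.19 CPM in normoxia and 10.1, 4.58 and 6.59 CPM in hyperoxia. No-vehicle libraries had 4.47 and 2.63 CPM in normoxia and 6.98 and 6.17 CPM in hyperoxia. The groups did not overlap with vehicle or without vehicle and overlapped with ATRA, but the log2 fold changes of 0.59, 0.88 and 1.05 had SEs of 0.66, 0.72 and 0.55, and no adjusted p was below 0.183. At these counts a difference of this size was not detectable. MMP1, the interstitial collagenase (chr11:102789919-102798160), had 0 counts in 12 of the 14 libraries and 2 counts in the first no-vehicle normoxia library and in the second vehicle hyperoxia library, all under the floor.

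**Figure D3:**
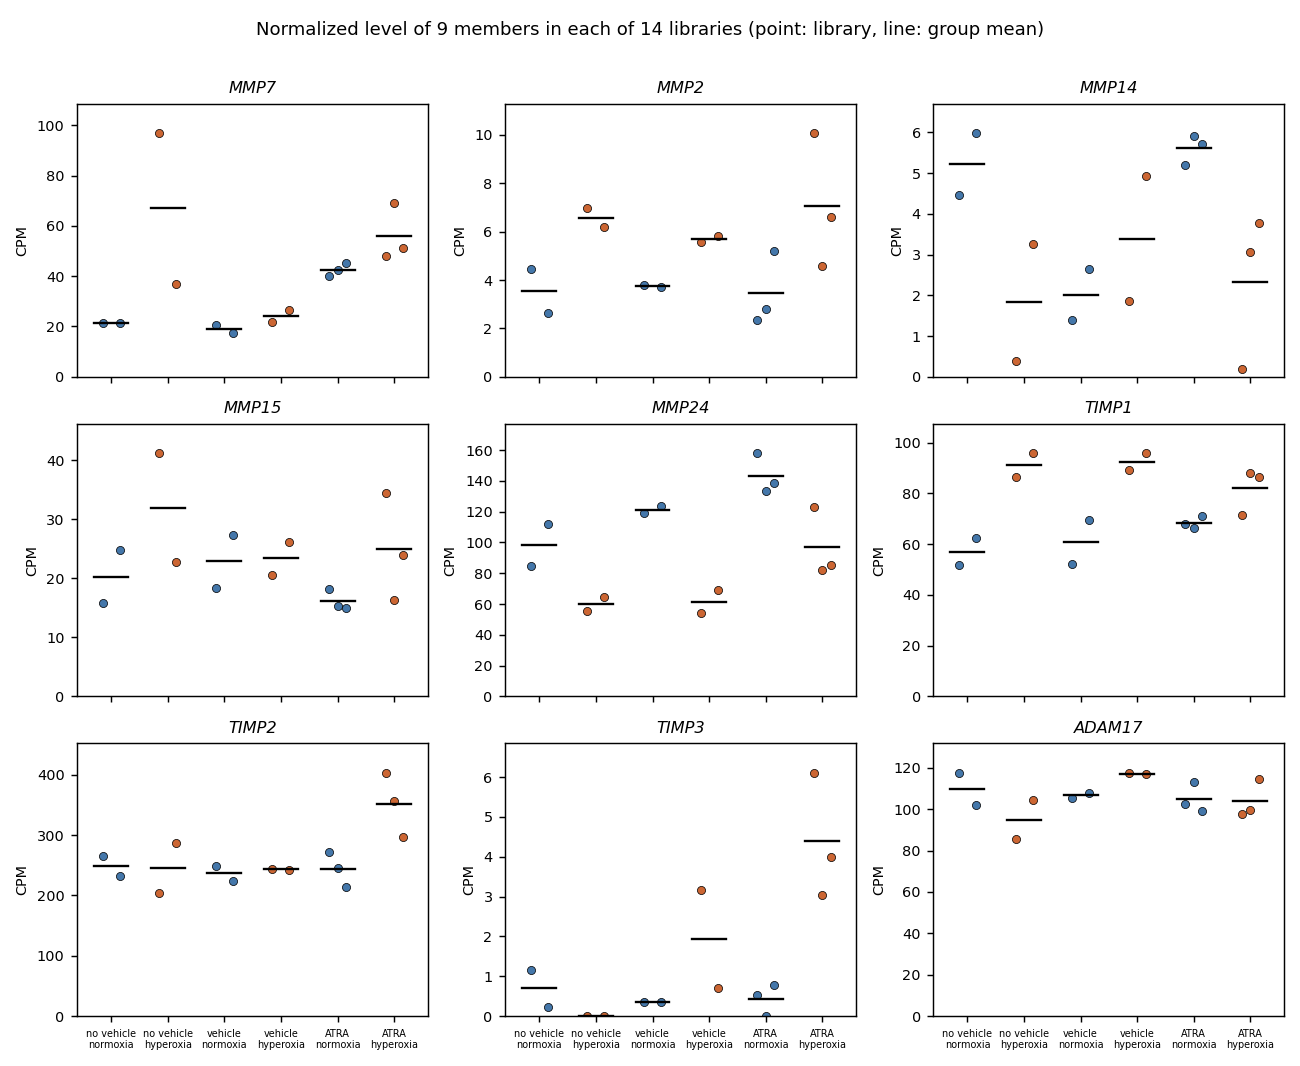
Level in CPM (y axis, from 0) of 9 genes in 14 libraries, by treatment and oxygen (x axis), with normoxia in blue, hyperoxia in orange, 1 point per library and a line at the group mean. MMP7 is higher in all ATRA libraries than in vehicle libraries, MMP24 is lower and TIMP1 higher in hyperoxia within each treatment, and TIMP2 is highest in hyperoxia with ATRA.

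Among the membrane-anchored enzymes, MMP24 (a membrane-type metalloproteinase best known from nervous tissue, where it cleaves cadherins) was the gene most regularly lower in hyperoxia. Vehicle libraries had 119 and 123 CPM in normoxia and 54.2 and 69.0 CPM in hyperoxia. ATRA libraries had 158, 133 and 139 CPM in normoxia and 123, 82.0 and 85.5 CPM in hyperoxia. No-vehicle libraries had 84.8 and 112 CPM in normoxia and 55.6 and 64.3 CPM in hyperoxia. Within each treatment the hyperoxia libraries were all below the normoxia libraries, although across treatments the ranges overlapped, since hyperoxia with ATRA reached levels of normoxia without it. MMP24 fell 1.96-fold with vehicle (log2 fold change -0.97, SE 0.19, edgeR adjusted p = 0.000863) and 1.47-fold with ATRA (-0.55, SE 0.15, adjusted p = 0.0108). Without vehicle the log2 fold change was -0.72 (adjusted p = 0.0333), and -0.61 (adjusted p = 0.137) without the library that stood apart. The vehicle call held without any 1 library. The ATRA call was lost without the first normoxia library (-0.48, adjusted p = 0.0597) or the third hyperoxia library (-0.48, adjusted p = 0.0517), and the no-vehicle call also without the second normoxia library (-0.54, adjusted p = 0.217).

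MMP24 with ATRA was just outside the threshold in hyperoxia. Its log2 fold change against vehicle was 0.66 (SE 0.18, adjusted p = 0.0528) with no overlap between the groups, and DESeq2 gave 0.66 with adjusted p = 0.0184. It also passed with RLE size factors (0.0480), with no filter (0.00759), with controls pooled without the library that stood apart (0.0294) and in 3 of 10 fits that left out 1 library, while over all 10 of those fits adjusted p ran from 0.0366 to 0.703. In normoxia the log2 fold change was 0.24 (adjusted p = 0.800), and the difference of these effects, 0.42, had an adjusted p of 0.794.

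MMP24 spans chr20:35226690-35276998 on the plus strand and overlaps genes on the opposite strand, whose reads the counting may not have kept apart. MMP24-AS1-EDEM2, a transcript that joins the antisense gene of MMP24 to EDEM2, covers the whole gene and had 57.2% as many counts over the 14 libraries. MMP24OS, the opposite-strand gene at its end, overlaps it by 647 bases and had 71.5% as many. With vehicle, MMP24-AS1-EDEM2 fell in hyperoxia by 0.80 on the log2 scale (edgeR adjusted p = 0.00892), while MMP24OS had a log2 fold change of -0.08 (adjusted p = 0.843). With ATRA in hyperoxia, MMP24OS rose by 0.77 (adjusted p = 0.0233), and MMP24-AS1-EDEM2 had a log2 fold change of 0.19 (adjusted p = 0.738). The call of MMP24-AS1-EDEM2 was lost with 14 libraries (adjusted p = 0.211), with pooled controls (-0.094, adjusted p = 0.859) and without the first vehicle hyperoxia (0.0506), second vehicle hyperoxia (0.0941) or first vehicle normoxia library (0.0602). That of MMP24OS was lost with 14 libraries (0.117), with pooled controls (0.0638) and without the first ATRA hyperoxia (0.0854) or the first (0.437) or second (0.170) vehicle hyperoxia library. Without vehicle the longer transcript was at 124 CPM in the hyperoxia library that stood apart and at 40.3 CPM in the other. Whether the 3 genes differ in their response, and which share of reads belongs to each, was not tested. Changes of MMP24 within these overlaps therefore could not be told apart from changes of the overlapping genes. Elsewhere in these files, TALAM1, antisense to the nuclear RNA MALAT1, had 1.87 to 2.01 times as many counts as MALAT1 in each library. PARP2 had 1.96 to 2.39 times as many as its neighbor RPPH1, and PCNA-AS1 had 0.704 to 1.13 times as many as PCNA. Whether the counting kept the strands apart was not tested, for these pairs or for the genes followed here.

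**Figure D4:**
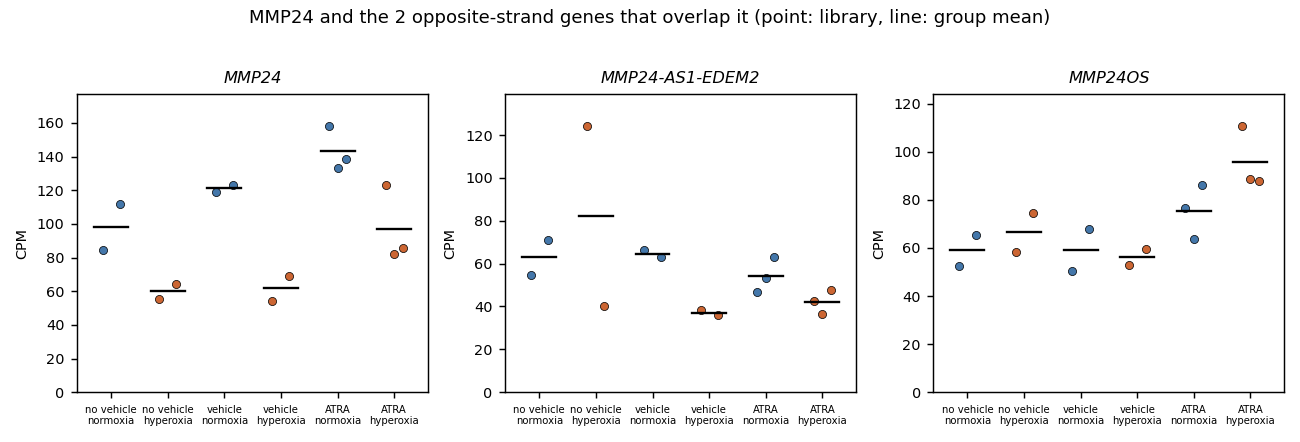
Level in CPM (y axes, from 0) of MMP24 and of the 2 overlapping opposite-strand genes in 14 libraries by treatment and oxygen (x axes), with 1 point per library and a line at the group mean. MMP24 is lower in hyperoxia within each treatment, MMP24-AS1-EDEM2 is lower with vehicle and reaches 124 CPM in 1 no-vehicle hyperoxia library, and MMP24OS is highest in hyperoxia with ATRA.

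MMP15 and MMP14 completed the membrane-anchored enzymes, and neither passed the test in any comparison. MMP15, at chr16:58025754-58046901, had 18.4 and 27.4 CPM with vehicle in normoxia and 20.6 and 26.2 CPM in hyperoxia, a log2 fold change of 0.02 with a 95% interval from -0.66 to 0.70. With ATRA it had 18.2, 15.3 and 15.1 CPM in normoxia and 34.5, 16.4 and 24.0 CPM in hyperoxia. The log2 fold change with ATRA was 0.65 (SE 0.28, adjusted p = 0.0984), and it passed the threshold without the second ATRA hyperoxia library (0.83, adjusted p = 0.0314). Without vehicle it had 15.7 and 24.9 CPM in normoxia and 41.3 and 22.7 CPM in hyperoxia, the highest again in the library that stood apart.

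MMP14, the collagenase that with TIMP2 activates the MMP2 precursor at the cell surface, lies at chr14:22836585-22847758 and had 1 to 28 counts per library. Its levels were 1.39 and 2.65 CPM with vehicle in normoxia and 1.85 and 4.93 CPM in hyperoxia. With ATRA they were 5.20, 5.91 and 5.71 CPM in normoxia and 0.180, 3.05 and 3.77 CPM in hyperoxia, where the lowest value is a single count. Without vehicle they were 4.47 and 5.98 CPM in normoxia and 0.399 and 3.25 CPM in hyperoxia. The groups did not overlap with ATRA or without vehicle, with hyperoxia below normoxia, but with vehicle they overlapped. The log2 fold changes were 0.72 with vehicle (adjusted p = 0.695), -1.31 with ATRA (adjusted p = 0.264) and -1.57 without vehicle (adjusted p = 0.393), and the last was -3.67 (adjusted p = 0.0397) without the second no-vehicle hyperoxia library, which leaves only the library that stood apart.

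Among the inhibitors, TIMP1 (which inhibits most secreted metalloproteinases and also signals through CD63) lies at chrX:47582436-47586789 and was higher in hyperoxia. Vehicle libraries had 52.0 and 69.5 CPM in normoxia and 89.1 and 95.9 CPM in hyperoxia. No-vehicle libraries had 51.7 and 62.4 CPM in normoxia and 86.3 and 95.9 CPM in hyperoxia. ATRA libraries had 68.1, 66.3 and 71.1 CPM in normoxia and 71.4, 88.2 and 86.6 CPM in hyperoxia. Within each treatment the groups did not overlap, and TIMP1 was the only one of the 10 genes whose 7 hyperoxia libraries (71.4 to 95.9 CPM) were all above the 7 normoxia libraries (51.7 to 71.1 CPM). Groups of these sizes did not overlap for 13.7% of all genes, and 6.34% had all hyperoxia libraries higher and 7.31% all lower. The gap is narrow, and without the library that stood apart, which also changes the scaling, the 6 and 7 libraries overlapped for TIMP1 and did not overlap for 16.2% of all genes. TIMP1 rose 1.51-fold with vehicle (log2 fold change 0.59, SE 0.18, edgeR adjusted p = 0.0230). Without vehicle it rose by 0.67 (SE 0.19, adjusted p = 0.0233), and by 0.75 (adjusted p = 0.0298) without the library that stood apart. With ATRA the log2 fold change was 0.25 (SE 0.15, adjusted p = 0.232), and the difference between the ATRA and vehicle values, -0.34, had an interval from -0.82 to 0.14.

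The TIMP1 calls rest on few libraries. The vehicle call was lost without the first hyperoxia library (0.62, adjusted p = 0.104), the second (0.51, adjusted p = 0.220) or the first normoxia library (0.38, adjusted p = 0.368), and in a fit of 14 libraries adjusted p was 0.0556. The no-vehicle call was lost without either no-vehicle normoxia library (0.50, adjusted p = 0.272, and 0.77, adjusted p = 0.0589) or the second vehicle hyperoxia library (0.65, adjusted p = 0.0505).

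TIMP2 (which inhibits metalloproteinases and takes part in the activation of MMP2) lies at chr17:78852977-78925387 and was highest where hyperoxia and ATRA were combined, with 404, 356 and 296 CPM. ATRA libraries in normoxia had 272, 246 and 215 CPM, and vehicle libraries had 249 and 225 CPM in normoxia and 244 and 242 CPM in hyperoxia. No-vehicle libraries had 266 and 232 CPM in normoxia and 204 and 288 CPM in hyperoxia. The 3 hyperoxia libraries with ATRA thus lay above all other libraries. With ATRA, TIMP2 rose 1.44-fold in hyperoxia (log2 fold change 0.53, SE 0.12, edgeR adjusted p = 0.00325), a call that held without any 1 library. With vehicle the log2 fold change was 0.04 (adjusted p = 0.901, 95% interval -0.27 to 0.35). In hyperoxia, TIMP2 rose 1.45-fold with ATRA against vehicle (0.54, SE 0.14, adjusted p = 0.0432), while in normoxia the log2 fold change was 0.05 (adjusted p = 0.976). The difference between these ATRA effects was 0.49 (SE 0.19, unadjusted p = 0.0203), and its adjusted p of 0.574 did not pass. The call of ATRA against vehicle was lost without the first (0.42, adjusted p = 0.154) or second ATRA hyperoxia library (0.51, adjusted p = 0.116) or without any 1 of the 4 vehicle libraries, where adjusted p ran to 0.419 without the first vehicle hyperoxia library (0.53). It also did not pass when only the groups compared were fitted (adjusted p = 0.0569), with all 14 libraries (0.233), with 13 (0.0519), with pooled controls (0.0585) or with a term for library sets (0.43, adjusted p = 0.0805).

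TIMP3, a matrix-bound inhibitor that also blocks ADAM17, lies at chr22:32801705-32863041 and was near the limit of detection. It had 1 and 2 counts with vehicle in normoxia and 12 and 4 in hyperoxia. With ATRA it had 2, 0 and 3 counts in normoxia and 34, 8 and 17 in hyperoxia. Without vehicle it had 6 and 1 counts in normoxia and 0 and 0 in hyperoxia, so the no-vehicle libraries lay in the opposite order to the other treatments. TIMP3 passed the filter on low counts through 4 hyperoxia libraries alone, the group where it was higher. Its call and intervals below are therefore a description and not support for a response to oxygen. With ATRA the summed counts of 59 and 5 gave a ratio of 10.4 after scaling to library size, with an exact 95% counting interval from 4.20 to 33.1, and the edgeR log2 fold change was 3.22 (SE 1.05, adjusted p = 0.0307). With vehicle 16 and 3 counts gave a ratio of 4.81, with an interval from 1.38 to 25.8, and an edgeR adjusted p of 0.276. The ATRA call was lost in 8 of 10 fits that left out 1 library, with the third hyperoxia and the second hyperoxia library as the exceptions, at adjusted p from 0.0524 to 0.0883, and also in a fit of 14 libraries (0.0977), with pooled controls (0.130) and with a term for library sets (0.0504).

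ADAM17, at chr2:9488486-9555830, was among the steadiest of the 10 genes. Vehicle libraries had 105 and 108 CPM in normoxia and 117 and 117 CPM in hyperoxia, and ATRA libraries had 102, 113 and 98.9 CPM in normoxia and 97.8, 99.6 and 115 CPM in hyperoxia. No-vehicle libraries had 118 and 102 CPM in normoxia and 85.5 and 104 CPM in hyperoxia. Its log2 fold change with oxygen was 0.13 with vehicle (95% interval -0.18 to 0.44), -0.01 with ATRA (-0.27 to 0.25) and -0.22 without vehicle (-0.55 to 0.12). ATRA gave -0.03 in normoxia and -0.17 in hyperoxia, and none of the 5 values passed the test. ADAM17 overlaps IAH1 on the opposite strand, which had 74.1% as many counts, so changes of ADAM17 within that overlap could not be told apart from those of IAH1.

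Around these genes, 58 further genes of the system were followed: other metalloproteinases, ADAM and ADAMTS proteinases, inhibitors, and the convertases, carriers and receptors that activate or clear them. Of these, 31 had enough counts for the fit of vehicle and ATRA libraries. In hyperoxia with vehicle, 5 of 31 rose and 0 fell, where 8.68% of all genes were called higher and 8.81% lower, and the median log2 fold change of the 31 was 0.14 against 0.01 for all genes. RHBDF1 and RHBDF2, the iRhom carriers that bring ADAM17 to the cell surface, rose by log2 fold changes of 1.37 (SE 0.30, adjusted p = 0.00222) and 0.79 (SE 0.23, adjusted p = 0.0187). RHBDF1 went from 10.1 and 11.5 CPM to 29.6 and 26.6 CPM, and RHBDF2 from 36.4 and 53.4 CPM to 78.5 and 79.6 CPM, while the ADAM17 levels given above lay within 105 to 117 CPM. LRP1, the endocytic receptor that takes up metalloproteinases with their inhibitors, rose by 0.66 (adjusted p = 0.00221), and CD63, the cell surface partner of TIMP1, by 0.38 (adjusted p = 0.0414). ADAMTS7, a secreted proteinase that cleaves cartilage oligomeric matrix protein, rose by 1.79 (adjusted p = 0.00155), from 9.01 and 6.72 CPM to 24.9 and 28.3 CPM. The call of CD63 was lost without any 1 of the 4 vehicle libraries, at adjusted p from 0.113 to 0.430, and without the third ATRA hyperoxia library, at 0.0541. The call of RHBDF2 was lost without either vehicle hyperoxia library, at 0.0973 and 0.120, or the first vehicle normoxia library, at 0.292, and that of ADAMTS7 without the second vehicle normoxia library, at 0.0513. In a fit of 14 libraries, RHBDF1 (adjusted p = 0.0515), RHBDF2 (0.0892) and CD63 (0.0626) did not pass. CD63 also did not pass with RLE size factors (edgeR adjusted p = 0.0539) or with no filter on low counts (0.0905).

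With ATRA, 4 of the 31 were higher in hyperoxia and 0 lower, about the share of all genes, 11.4% of which were called higher and 11.3% lower. The median log2 fold change of the 31 was 0.038, against 0.01 for all genes. ADAMTS7 rose by 2.99, LRP1 by 1.71, RHBDF2 by 0.89 (edgeR adjusted p = 0.00158) and TIMP4, the remaining member of the inhibitor family, by 1.06 (adjusted p = 0.00322). TIMP4 had 16.1, 11.5 and 21.0 CPM in normoxia and 38.5, 34.0 and 29.4 CPM in hyperoxia. All 4 calls held without any 1 library. Without vehicle, RHBDF1, RHBDF2, LRP1 and ADAMTS7 were higher again (5 of 32 genes called, where 15.2% of all genes were), by 2.17, 1.38, 1.15 and 2.80, and the convertase gene PCSK7 was lower by 1.55 on the log2 scale (adjusted p = 0.0334). Without the library that stood apart the first 4 were still called, at 1.17 for RHBDF1, and PCSK7 was not (-0.93, adjusted p = 0.172), nor was it with a term for library sets (0.0808). RHBDF1 had 72.0 CPM in that library, against 24.4 CPM in the other. Fitted on the 4 no-vehicle libraries alone, RHBDF1, RHBDF2, LRP1 and ADAMTS7 had adjusted p from 0.0980 to 0.200.

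ATRA changed 1 of the 31 at each oxygen level, close to the shares of all genes, 2.21% in hyperoxia and 1.25% in normoxia. In hyperoxia LRP1 rose by 0.90 (SE 0.13, adjusted p = 0.000283), from 218 and 205 CPM with vehicle to 433, 392 and 360 CPM. In normoxia it had 137 and 132 CPM with vehicle and 132, 107 and 124 CPM with ATRA. In normoxia ADAMTS15 rose by 1.77 (SE 0.37, edgeR adjusted p = 0.0147), from 6.24 and 5.48 CPM to 22.1, 19.0 and 18.4 CPM, and that call was lost without the first (adjusted p = 0.160) or second (0.283) vehicle normoxia library or the first ATRA normoxia library (0.0875), and in the fit of 14 libraries (0.296). The ADAMTS15 call was also lost with pooled controls (edgeR adjusted p = 0.0570). The 27 genes without a test included the collagenases MMP8 and MMP13 and the gelatinase MMP9, with at most 1, 1 and 5 counts in any library.

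Across the 14 libraries, the genes with a pattern most like that of MMP24 and TIMP1 were found by the mean absolute difference of log2 CPM after each gene was centered on its own mean, among 10781 genes. For MMP24 they were LOC101927741, TNS3 and PFKFB3, with mean differences of 0.13, 0.14 and 0.15, where the median over all these genes was 0.52 and the mean deviation of MMP24 from its own mean was 0.44. For TIMP1 they were AP2M1, ITPA and SLC22A23, each with a mean difference of 0.10, where the median was 0.38 and the mean deviation of TIMP1 was 0.25. Without the library that stood apart, the nearest genes were HNRNPA0, SREBF1 and HSPA2 for MMP24 (0.12 to 0.13) and KLHL36, SLC22A23 and KDM5C for TIMP1 (0.068 to 0.081), so of the 6 names only SLC22A23 was found both ways. The likeness is a description and shares the libraries and their depth.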

How the data were processed

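RNA of A549 cells was sequenced from directional libraries. Per the labels and the study's methods, the authors used Trimmomatic 0.38 for trimming, HISAT2 for alignment (hg38) and HTSeq for counting, and deposited raw counts per gene symbol for 15 libraries. The annotation release and the counter's strand and overlap settings are not given in the sources used here. Non-gene categories held 75.2% to 78.4% of the deposited counts of a library and were left out.

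Counts were tested with the quasi-likelihood test of edgeR 4.0.16 (R 4.3.3) after TMM normalization and a filter (minimum count 10, minimum total 15), with Benjamini-Hochberg adjustment over all genes and a threshold of 0.05. The fit of 10 vehicle and ATRA libraries in 4 groups held 14957 genes, and the no-vehicle contrast came from 14 libraries in 6 groups with 15339 genes. In simulated data for the vehicle oxygen comparison (14509 genes), 32.1% of 2-fold and 66.4% of 4-fold changes were recovered, and 8.11% of the calls were false. The simulation changed 84 genes 2-fold and 113 genes 4-fold, far fewer than the 2616 genes called in the data. Its recovery therefore need not hold for these data. Positions are from RefSeq on GRCh38, and CPM per kilobase uses canonical transcript lengths from GENCODE.

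All 10 genes are described. Further family genes are named where they passed the test in a comparison, and the 3 nearest patterns for genes called in the vehicle oxygen comparison. The genes and lists were chosen with earlier results of these data known. Alternatives were DESeq2 1.42.0, RLE size factors, no filter, other sets of libraries, pooled controls, a term for library sets inferred from library numbers, and leaving out each library. Leaving out the first no-vehicle hyperoxia library from the larger fits and descriptions was chosen after seeing the data, as was the difference of the oxygen effects with and without vehicle.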

Additional observations from a re-analysis of the deposited data

Results flagged for a closer look

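LRP1, the endocytic receptor for metalloproteinases and their inhibitors, was picked out because its ATRA effect differed between the oxygen levels by the test of the difference itself. The ATRA effect was 0.90 (SE 0.13, edgeR adjusted p = 0.000283) in hyperoxia and -0.15 (SE 0.13, adjusted p = 0.868) in normoxia, a difference of 1.05 on the log2 scale (SE 0.18, 95% interval 0.67 to 1.43, adjusted p = 0.0145). In 21 of 14957 genes this difference passed the test. The ATRA libraries in hyperoxia had 433, 392 and 360 CPM and all other libraries had at most 279 CPM. The call was lost without any 1 of the 4 vehicle libraries. It was also lost when controls were pooled (0.78, edgeR adjusted p = 0.308) or all 14 libraries were fitted (adjusted p = 0.150). Among the 8 alternatives other than leaving out each library, which include these fits, the difference passed in 5.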

How the results depend on the processing

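The number of the 9 genes called moved with the libraries fitted and, less, with other settings. DESeq2, RLE size factors and no filter each called 3 for ATRA in hyperoxia, where MMP24 was added, and left the other counts of these 9 as they were. Of all genes, they called 3.74%, 2.26% and 2.12% there. Oxygen with vehicle called 1 in the fit of 14 libraries, where 9.26% of all genes were called, and 4 when vehicle and ATRA libraries were tested together. ATRA in hyperoxia called 1 with only the groups compared (1.86% of all genes), 0 with 14 libraries (0.756%) and 0 with pooled controls (1.24%). It called 1 with 13 libraries and 1 with a term for the library set. ATRA in normoxia called 0 with 14 libraries (0.456% of all genes) and 0 with pooled controls (1.09%). The no-vehicle comparison called 0 with only its own groups, where 0.419% of all genes were called. Among the further family genes, oxygen with vehicle called 12 with only the groups compared, 2 with 14 libraries, 8 with pooled controls, 11 with controls pooled without the library that stood apart and 9 with vehicle and ATRA libraries together. Of all genes, 33% were called in the first of these fits, 9.26% in the second and 24.3% in the third, so these counts moved with the share of all genes. Shares are not given here for the other fits, nor for those that left out 1 library. Leaving out 1 library at a time, the counts ran from 1 to 2 for oxygen with vehicle, 1 to 4 with ATRA, 1 to 5 without vehicle, 0 to 3 for ATRA in hyperoxia, 0 to 1 in normoxia, 0 to 0 for the difference and 3 to 9 for the further genes. No direction turned under DESeq2, RLE size factors, no filter or a fit of only the groups compared. With pooled controls, log2 fold changes turned for MMP14 (-0.48) and ADAM17 (-0.035) with oxygen and vehicle, MMP15 with ATRA in hyperoxia (-0.15), TIMP3 with ATRA in normoxia (-0.25), the MMP7 difference of ATRA effects (-0.81), MMP24OS with oxygen and vehicle (0.044), and MMP24-AS1-EDEM2 with ATRA in hyperoxia (-0.51) and in the difference (-0.29). Without the library that stood apart, pooled controls gave -0.12 for MMP14, -0.27 for TIMP3, -0.098 for the MMP7 difference and 0.058 for MMP24OS. With the library set term, MMP15 with ATRA in hyperoxia was -0.12, and TIMP2 and ADAM17 with ATRA in normoxia were -0.051 and 0.0058. With vehicle and ATRA libraries together, MMP14, MMP24OS and ADAM17 gave oxygen effects of -0.50, 0.18 and 0.048. Leaving out 1 library turned genes that had not passed the test. For oxygen with vehicle, the values ran from -0.19 to 1.27 for MMP14, -0.25 to 0.33 for MMP15, -0.055 to 0.083 for TIMP2 and -0.30 to 0.14 for MMP24OS. For oxygen with ATRA, ADAM17 ran from -0.10 to 0.047. For oxygen without vehicle, TIMP2 ran from -0.35 to 0.20, MMP24-AS1-EDEM2 from -0.64 to 0.93 and MMP24OS from -0.073 to 0.34. For ATRA in hyperoxia, MMP14 ran from -1.30 to 0.28, MMP15 from -0.20 to 0.30 and MMP2 from -0.0095 to 0.54. For ATRA in normoxia, ADAM17 ran from -0.084 to 0.017, MMP2 from -0.54 to 0.10, TIMP1 from -0.028 to 0.40, TIMP2 from -0.036 to 0.14 and TIMP3 from -0.31 to 0.84, and the MMP7 difference ran from -0.17 to 0.18. The cause of these changes was not tested. The labels give no replicate numbers that pair libraries across groups. The term for library sets, which blocks on sets inferred from library numbers, ended the calls of TIMP2 with ATRA in hyperoxia (0.43, adjusted p = 0.0805), TIMP3 with oxygen and ATRA (3.19, adjusted p = 0.0504) and PCSK7 without vehicle, and of no other gene named here. Depth limits MMP1, MMP2, MMP14 and TIMP3, where a few counts set the values.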

Other observations

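The library whose labels disagree on its group had 87.9 CPM of TIMP1, 63.5 CPM of MMP24, 31.4 CPM of MMP7, 249 CPM of TIMP2 and 122 CPM of ADAM17. MMP15 was at 29.7 CPM, MMP2 at 6.15 CPM, MMP14 at 3.73 CPM and TIMP3 at 1.10 CPM, and MMP1 had 0 counts.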
